A study of Mus musculus with 21 samples.

Results

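The epidermal differentiation complex of the mouse is a cluster of genes on chromosome 3 that encodes much of the protein of the outermost skin layers. Its members were taken here by position: every gene of the deposited count tables on chromosome 3 that lies whole between bases 92000000 and 93600000 of the GRCm38 assembly. The rule uses no measured value and found 95 of the 49315 genes in the tables, spanning 1.554 Mb from base 92010756 to base 93564643. Of these, 59 are protein-coding in the GENCODE M21 annotation. By symbol they hold loricrin and involucrin (2 genes), Sprr1 (2), Sprr2 (12), Sprr3 and Sprr4 (2), Lce1 (14), Lce3 (6), Lce6 (1), the S100-fused type (7), S100 (2), 12 other protein-coding genes and 35 pseudogenes, noncoding and small RNA genes.

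The series measured total RNA of epidermal sheets from mouse skin and addressed what AP-2α and AP-2β, the transcription factors made from Tfap2a and Tfap2b, do in adult skin. It held 21 samples in 7 groups of 3, but 13 of the tables list 0 for all genes, so 8 libraries gave values. These were 3 libraries of the strain-specific control at 6 months of age, with the genotype WT in the labels, 3 libraries of K14CreTfap2afl/flTfap2bfl/fl mice at 6 months, and 2 libraries of K14CreTfap2bfl/fl mice at 3 weeks. K14Cre places the Cre recombinase under the keratin 14 promoter, which is active in basal keratinocytes, so the floxed alleles are meant to be deleted in the epidermis and its appendages and in all cells that descend from those keratinocytes. The labels do not say whether the controls carry Cre or floxed alleles, nor whether each library came from its own mouse, so p-values measure the spread between these libraries, which may be technical.

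Library totals ran from 11318181 to 17746284 counts. Libraries labelled double knockout had no less Tfap2a than the controls: it measured 229, 213 and 309 counts per 1000000 counts of the library (CPM), against 165, 140.3 and 210.1 CPM. Tfap2b measured 53.8, 57.2 and 56.9 CPM against 57.3, 86.6 and 71.03 CPM, so it was lower in each of these libraries, by a narrow margin. A count per gene also takes in reads from exons outside the deleted part, so neither value tests the deletion or the label. Since the deletion was not tested, the group is called "labelled double knockout" throughout. Odorant and vomeronasal receptor genes, which skin does not use, had 1.61 and 3.19 counts per kb of exon in control replicates 1 and 2 but between 0.0971 and 0.195 in the other 6 libraries. The 4 higher and 4 lower calls in the complex stayed at 4 and 4 when that level was subtracted from every gene. Among the libraries labelled double knockout, replicate 3 stood apart with 172 CPM of S100a8, an alarmin of inflamed skin outside the interval, against 24.04 and 4.23 CPM in replicates 1 and 2 and 0.0651 to 2.08 CPM in the controls. Of 6 markers of basal keratinocytes, 5 were past the test and higher in libraries labelled double knockout, and the sum of the 6 was 14135 to 17349 CPM there against 6950 to 9303 CPM. The sixth, Krt15, measured 728, 1164 and 1187 CPM in controls and 234, 673 and 330 CPM in the other group, which did not overlap, at -1.39 ± 0.39 (log2, SE; edgeR adjusted p = 0.0513). The 6 suprabasal markers, 1 of which was higher and 1 lower by the test, summed to 12279 to 16211 CPM against 11685 to 14422 CPM. Of 7 sebaceous gland genes, 6 were tested, 1 was higher and 2 lower, with a sum of 770 to 956 CPM in controls and 395 to 474 CPM in the other group. Scd1 made up most of that sum in controls, at 718 to 848 CPM there and 168 to 224 CPM in the other group. Fabp5, the 1 called higher, went the other way, at 33.1 to 67.9 CPM against 179 to 280 CPM. Of 8 dermal fibroblast genes, 1 was higher and 3 lower, with a sum of 64.0 to 176 CPM against 27.3 to 51.8 CPM. Called higher were 83.3% of the basal markers tested and 16.7%, 16.7% and 12.5% of the suprabasal, sebaceous and dermal ones, against 6.26% of all genes. Called lower were 0%, 16.7%, 33.3% and 37.5% of these lists in the same order, against 8.59% of all genes. None of these lists had a gene at 0 in all 6 libraries. The part of these shifts in the results on the complex was not tested. In sheets of mixed cells, fewer cells of a layer and less RNA per cell cannot be told apart.

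Keratinocytes that leave the basal layer pass through the spinous and granular layers and end as dead, flattened corneocytes. Under the membrane of a corneocyte lies the cornified envelope, a shell of proteins that transglutaminases crosslink to each other. Involucrin and the plakins form its scaffold, loricrin and the Sprr and Lce proteins reinforce it, and filaggrin, cut from a long precursor of repeats, bundles the keratin filaments inside. Genes of the complex are switched on in order on this way, and part of them, among them Sprr1b, Sprr2 and Lce3 genes, are known to be induced when the skin barrier is stressed.

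Promoters of the 6 called members that the RefSeq table holds, and of Flg, are shown for their sequence features, from 250 bases before to 50 bases after the RefSeq start site on GRCm38.p6. The motifs searched on both strands, in capitals, were AP-2 (GCCNNNGGC), AP-1 (TGANTCA), the TATA box (TATAAA), a KLF4 box (GGGTGNGG) and an NRF2 element (TGACNNNGC), of which the AP-1 and NRF2 letters can overlap. Sprr1b, Sprr2a3 and Sprr2i were past the test and higher, 2310050C09Rik, Lce1m and Flg2 were past it and lower, and Flg lies next to Flg2.
Sprr1b, chr3:92438730-92439029, minus strand: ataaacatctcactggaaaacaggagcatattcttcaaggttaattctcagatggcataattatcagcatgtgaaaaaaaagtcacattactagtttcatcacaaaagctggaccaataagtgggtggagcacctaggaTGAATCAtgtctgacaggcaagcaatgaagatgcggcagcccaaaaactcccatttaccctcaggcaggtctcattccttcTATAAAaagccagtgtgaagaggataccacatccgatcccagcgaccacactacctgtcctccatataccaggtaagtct
Sprr2a3, chr3:92285054-92285353, plus strand: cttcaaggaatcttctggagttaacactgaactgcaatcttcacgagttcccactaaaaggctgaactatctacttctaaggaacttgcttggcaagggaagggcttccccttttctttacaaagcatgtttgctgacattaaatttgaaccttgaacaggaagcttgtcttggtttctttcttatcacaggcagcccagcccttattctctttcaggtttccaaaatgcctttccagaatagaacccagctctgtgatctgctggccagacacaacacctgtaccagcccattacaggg
Sprr2i, chr3:92407741-92408040, plus strand: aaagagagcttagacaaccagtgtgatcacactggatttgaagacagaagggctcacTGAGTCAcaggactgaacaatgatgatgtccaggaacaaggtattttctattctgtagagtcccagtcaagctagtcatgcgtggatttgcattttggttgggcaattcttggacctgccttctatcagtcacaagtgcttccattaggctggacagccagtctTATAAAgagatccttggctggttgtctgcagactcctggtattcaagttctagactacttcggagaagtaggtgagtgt
Flg2, chr3:93197023-93197322, plus strand: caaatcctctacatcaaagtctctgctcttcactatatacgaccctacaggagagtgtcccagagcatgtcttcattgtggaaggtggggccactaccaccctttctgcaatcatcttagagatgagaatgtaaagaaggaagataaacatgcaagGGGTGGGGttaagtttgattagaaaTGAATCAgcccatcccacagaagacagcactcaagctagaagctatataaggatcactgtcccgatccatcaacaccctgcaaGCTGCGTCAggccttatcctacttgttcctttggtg
Flg, chr3:93273296-93273595, plus strand: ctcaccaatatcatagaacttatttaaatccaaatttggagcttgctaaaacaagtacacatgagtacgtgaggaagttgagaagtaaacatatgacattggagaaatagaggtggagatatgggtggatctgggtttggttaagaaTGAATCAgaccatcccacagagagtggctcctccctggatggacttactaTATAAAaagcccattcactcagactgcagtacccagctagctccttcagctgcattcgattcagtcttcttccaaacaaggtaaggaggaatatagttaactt
Lce1m, chr3:93019012-93019311, minus strand: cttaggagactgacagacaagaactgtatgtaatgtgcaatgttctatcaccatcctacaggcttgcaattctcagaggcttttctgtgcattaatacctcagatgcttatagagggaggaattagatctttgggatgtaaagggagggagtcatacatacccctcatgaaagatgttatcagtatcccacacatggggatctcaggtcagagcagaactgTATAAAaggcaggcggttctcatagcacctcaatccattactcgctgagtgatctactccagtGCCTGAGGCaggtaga
2310050C09Rik, chr3:92870156-92870455, minus strand: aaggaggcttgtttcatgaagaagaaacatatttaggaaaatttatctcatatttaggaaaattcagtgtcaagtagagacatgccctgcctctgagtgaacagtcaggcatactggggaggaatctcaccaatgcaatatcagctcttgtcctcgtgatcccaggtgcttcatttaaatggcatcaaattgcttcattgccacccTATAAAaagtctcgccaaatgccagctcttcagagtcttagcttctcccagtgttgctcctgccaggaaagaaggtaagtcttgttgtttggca

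Counted from the start site, Sprr1b had the AP-1 letters at -111 and a TATA box at -30, and Sprr2i had them at -193 and -29. Sprr2a3 held none of the motifs in this window, whose start site lies 113 bases from the start of the gene in the count files. The window ends at base 92285353, before that start at base 92285417, so the bases next to the latter were not searched. 2310050C09Rik had a TATA box at -44 and no other motif searched. Flg2 and Flg held AP-1 letters at -69 and -103, and Flg also had a TATA box at -53. Flg2 had instead a KLF4 box at -94 and the NRF2 letters at 14. Lce1m had a TATA box at -29 and the AP-2 letters at 34, and no AP-1 letters in this window. Of the 95 members, 49 had a promoter in the RefSeq table. Among them, 19 (38.8%) held the AP-1 letters, against 7.8% of all 32851 promoters of the same length: 2 of 2 in Sprr1, 7 of 10 in Sprr2, 5 of 7 in the S100-fused type, 0 of 13 in Lce1 and 0 of 6 in Lce3. The Sprr2 promoters without the AP-1 letters were those of Sprr2a1, Sprr2a2 and Sprr2a3. The windows of Sprr2a1 and Sprr2a2 hold the same letters, and that of Sprr2a2 lies 34727 bases from that gene's start in the count files. Their KLF4 box lies at 38, against -47 in Sprr2b, whose TATA box follows at -29. The bases further on were thus not searched, and an absence holds for these windows only. The TATA box was in 22 (44.9%) against 13.6% of all. AP-2 letters were found in 2 (4.1%), Lce3b and Lce1m, against 16.6%. The KLF4 box was in 6 (12.2%) against 16.6% and the NRF2 letters in 8 (16.3%) against 12.4%. Members of a family share ancestry, so these counts are not independent, and a match is a description of letters.

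Across the complex, genes that rose and genes that fell lay within the same 1.554 Mb. In the comparison at 6 months, 51 of the 95 members had enough counts to be tested, and 8 passed the test (15.7% of those tested; edgeR quasi-likelihood test, Benjamini-Hochberg adjusted p under 0.05 over 17755 genes). The share among all genes was 14.9%, so the number of calls in the complex was near the background. Higher in libraries labelled double knockout were Sprr1b, Sprr2a3, Sprr2i and 2310046K23Rik, 4 of 51 members against 6.26% of all genes. Lower were Flg2, Crct1, Lce1m and 2310050C09Rik, 4 of 51 against 8.59%. The median fitted difference was 0.41 (log2) over the members tested and -0.035 over all genes, whose quartiles were -0.55 and 0.36. In 20 of the 51 members (39.2%) the groups did not overlap, 13 higher and 7 lower, against 38.7% of all genes. A count of 22 members (43.1%) had an unadjusted p under 0.05, against 32.0% of all genes. Of the 44 members not tested, 14 were protein-coding or named family members and 30 were of other kinds, and 15 of them had 3 counts or fewer in each of the 6 libraries. The whole complex took 0.713%, 0.421% and 0.502% of counts in controls and 0.297%, 0.399% and 0.470% in libraries labelled double knockout, so its summed level overlapped between groups.

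Leaving out 1 library moved the background far more than the calls in the complex. Without replicate 1 of the libraries labelled double knockout, 8 of 56 members were called against 3.15% of all genes, and without control replicate 3, 11 of 56 against 35.9%. The members called higher ranged from 2 (without control replicate 2) to 6 (without labelled double knockout replicate 2), and for members called lower the lowest was 2, with control replicate 1 left out, and the highest 6, with control replicate 3 left out. DESeq2 called 10 members higher and 6 lower, 31.4% of those tested against 21.6% of all genes. Without a filter on low counts 17 and 5 were called, 23.9% of 92 members tested against 11.3% of all genes. By DESeq2, without a filter, and without labelled double knockout replicate 1, the share in the complex was above that over all genes. It was also above without replicate 2 (16.1% against 4.95%) or 3 (11.3% against 6.44%) of that group. Without control replicate 1 it was 10.9% against 7.55%, and without control replicate 2 10.5% against 6.65%. With the replicate number as a block it was 13.7% against 9.74%, and against a fold change of 1.5 7.84% against 3.29%. With all 8 libraries in 1 fit it was 11.9% against 7.17%. It was below without control replicate 3 (19.6% against 35.9%) and with at least 10 counts in every library (15.4% against 17.2%). With median-ratio factors, total counts or receptor-gene subtraction it was 15.7%, against 14.9%, 15.2% and 14.2%. The nearness to the background thus held for the reported fit and these last alternatives, and not for the fits with 1 library left out.

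**Figure D1:**
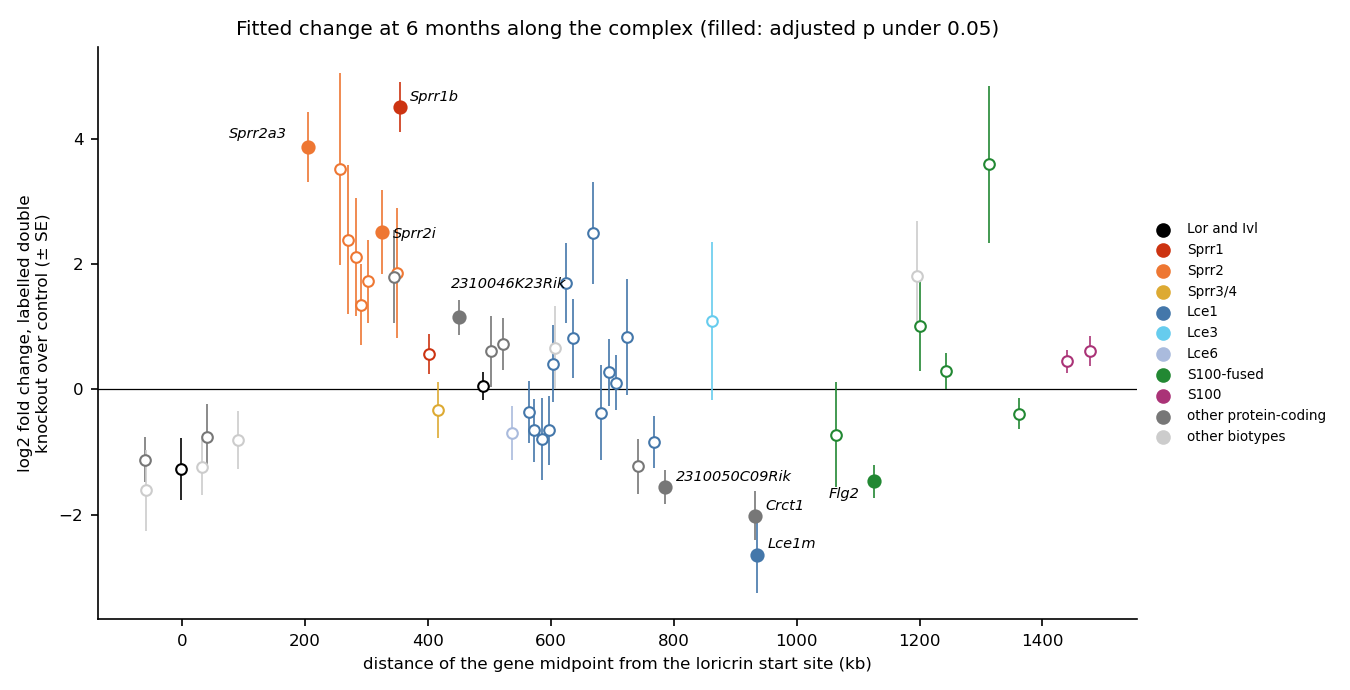
Fitted log2 fold change (vertical axis, with its standard error) of each of the 51 members tested, by distance of the gene's midpoint from the loricrin start site in kb (horizontal axis). Colours give the subfamily and filled points passed the test: the 4 filled points above 0 lie among and next to the Sprr genes, and the 4 below 0 lie from the far end of the main Lce1 cluster to Flg2.

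Loricrin, a main reinforcement protein of the mouse cornified envelope, was lower in each library labelled double knockout but did not pass the test. Lor (ENSMUSG00000043165, chr3:92080271-92083142) measured 742, 319 and 307 CPM in controls and 101, 275 and 219 CPM in libraries labelled double knockout. Control replicate 1 was far above the others, and the groups did not overlap. The fitted difference was -1.27 ± 0.49 (log2, SE) with an edgeR adjusted p of 0.131. Involucrin overlapped between the groups. Ivl (chr3:92570902-92573735) measured 178, 96.7 and 105 CPM in controls and 131, 135 and 149 CPM in the other group, 0.05 ± 0.22 (edgeR adjusted p = 0.897). The 3 libraries labelled double knockout lay inside the range of the controls.

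**Figure D2:**
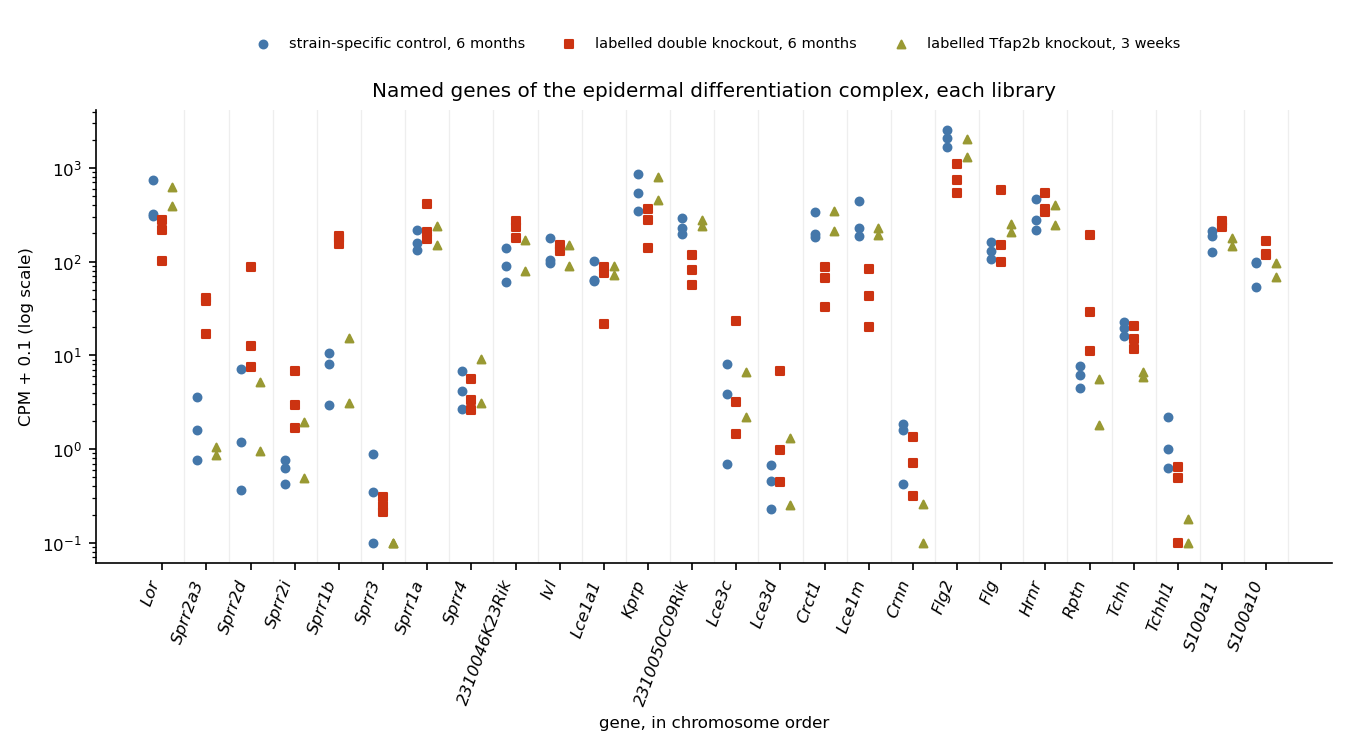
Level of each named gene (CPM plus 0.1, log axis) in chromosome order, 1 point per library: circles for 3 controls at 6 months, squares for 3 libraries labelled double knockout at 6 months, triangles for 2 labelled Tfap2b knockout at 3 weeks. The squares of Sprr1b (153 to 189 CPM) lie more than a decade above its circles (2.83 to 10.4 CPM), while those of Crct1, Lce1m and Flg2 lie below theirs.

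Small proline-rich proteins, which act as cross-bridges in the envelope, held the largest fitted rise among the members tested, which was called in 1 of the 2 Sprr1 genes. Sprr1b (ENSMUSG00000048455, chr3:92436809-92438789) measured 10.4, 2.83 and 8.01 CPM in controls and 189, 179 and 153 CPM in libraries labelled double knockout. The 3 latter values lay close together, far above all controls. The fitted difference was 4.51 ± 0.40 (log2, 22.8-fold, edgeR adjusted p = 0.000772), and it stayed past the threshold in each of the 17 alternative fits. Sprr1a (chr3:92483952-92485895), which lies 45.16 kb away, measured 156, 134 and 217 CPM against 412, 207 and 173 CPM. Its groups overlapped, and the fitted difference was 0.56 ± 0.32 (edgeR adjusted p = 0.259). Within a library, the counts of Sprr1b were 0.0664, 0.0210 and 0.0370 of those of Sprr1a in controls and 0.459, 0.868 and 0.886 in libraries labelled double knockout. Per kb of exon, Sprr1b stood at 8.52 ± 4.65 CPM (SD, n = 3) in controls and 209.7 ± 22.3 CPM (SD, n = 3) in the other group, and Sprr1a at 210.0 ± 52.8 and 328 ± 161 CPM. Summed, the Sprr1 genes measured 167, 137 and 225 CPM against 602, 386 and 327 CPM, 2.48-fold.

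Every one of the 8 Sprr2 genes tested had a fitted difference above 0, with a median of 2.25, and 2 passed the test. Of all genes tested, 47.8% were above 0 and 6.26% were called higher. The filter keeps a gene with enough counts in 3 libraries, so a low gene can be tested through the group where it is high. Sprr2i had 8, 6 and 5 counts in controls and 39, 23 and 118 in the other group, and Sprr2k 19, 2 and 1 against 29, 13 and 88. The filter thus in part sets the number above 0 and the median, which are only descriptive. Sprr2a3 (ENSMUSG00000074445, chr3:92285417-92291405) measured 0.664, 1.502 and 3.52 CPM in controls and 16.7, 40.5 and 37.9 CPM in libraries labelled double knockout. All 3 of the latter lay above all controls, and the fitted difference was 3.87 ± 0.56 (log2, edgeR adjusted p = 0.00474), or 4.72 without control replicate 3. Of its 150-base stretches, 19.0% also lie in Sprr2a1 or Sprr2a2, and 89.6% and 89.0% of the stretches of those genes are shared, so the split of reads between the copies is uncertain. Sprr2i (chr3:92407991-92409271) measured 0.664, 0.530 and 0.326 CPM against 2.82, 1.57 and 6.65 CPM, from 5 to 8 counts per control library. The groups did not overlap and the fitted difference was 2.51 ± 0.67 (edgeR adjusted p = 0.0242). That call was lost without control replicate 1 (2.73, edgeR adjusted p = 0.0532) or 2 (2.56, 0.0703), and without labelled double knockout replicate 1 (2.71, 0.0726) or 3 (1.81, 0.172).

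Sprr2d (chr3:92339140-92340873) had the highest mean CPM per kb of the Sprr2 genes in libraries labelled double knockout, 52.3 ± 65.7 (SD, n = 3), a mean that replicate 3 carried, and did not pass the test. It measured 1.08, 0.265 and 6.97 CPM in controls and 7.31, 12.3 and 87.2 CPM in the other group. The groups did not overlap, but replicate 3 was far above the others, and the fitted difference of 3.52 ± 1.53 (edgeR adjusted p = 0.19) was 1.69 without it and 5.46 without control replicate 3. Sprr2h (chr3:92385685-92387324), next in mean CPM per kb at 33.9 ± 17.8 (SD, n = 3), measured 5.07, 2.30 and 14.3 CPM against 21.4, 14.7 and 40.5 CPM. Its groups did not overlap, and the fitted difference was 1.72 ± 0.66 (edgeR adjusted p = 0.119). Replicate 3 was the highest of the 3 libraries labelled double knockout in 7 of the 8 Sprr2 genes tested, against 31.5% of all genes tested. Sprr2b (chr3:92316620-92318085), which did not pass the filter on low counts, had 2, 2 and 3 counts in the controls, 5 and 1 in labelled double knockout replicates 1 and 2, and 337 in replicate 3. Summed over the 12 Sprr2 genes, the controls stood at 13.4, 9.90 and 34.2 CPM and the libraries labelled double knockout at 65.1, 75.9 and 241 CPM. The groups did not overlap; the ratio of means was 6.65-fold (2.73 on the log2 scale), 3.68-fold with replicates 1 and 2 alone, and 3.45 on the log2 scale without control replicate 3. The other 2 Sprr genes did not pass the test. Sprr4 (chr3:92500263-92500493) measured 2.57, 4.06 and 6.77 CPM against 5.50, 3.27 and 2.48 CPM, -0.33 ± 0.45 (edgeR adjusted p = 0.637), and Sprr3 (chr3:92456502-92458720) had at most 9 counts in any library and was not tested. Next to the Sprr genes, 2310046K23Rik (ENSMUSG00000102308, chr3:92532505-92534511), a protein-coding gene, rose from 90.8, 61.2 and 141 CPM to 232, 179 and 272 CPM, with groups that did not overlap. Its fitted difference was 1.15 ± 0.28 (edgeR adjusted p = 0.0305), and the call was lost without control replicate 1 (1.11, 0.121) or 2 (0.91, 0.0603) and without labelled double knockout replicate 1 (1.18, 0.0911) or 3 (1.03, 0.080).

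**Figure D3:**
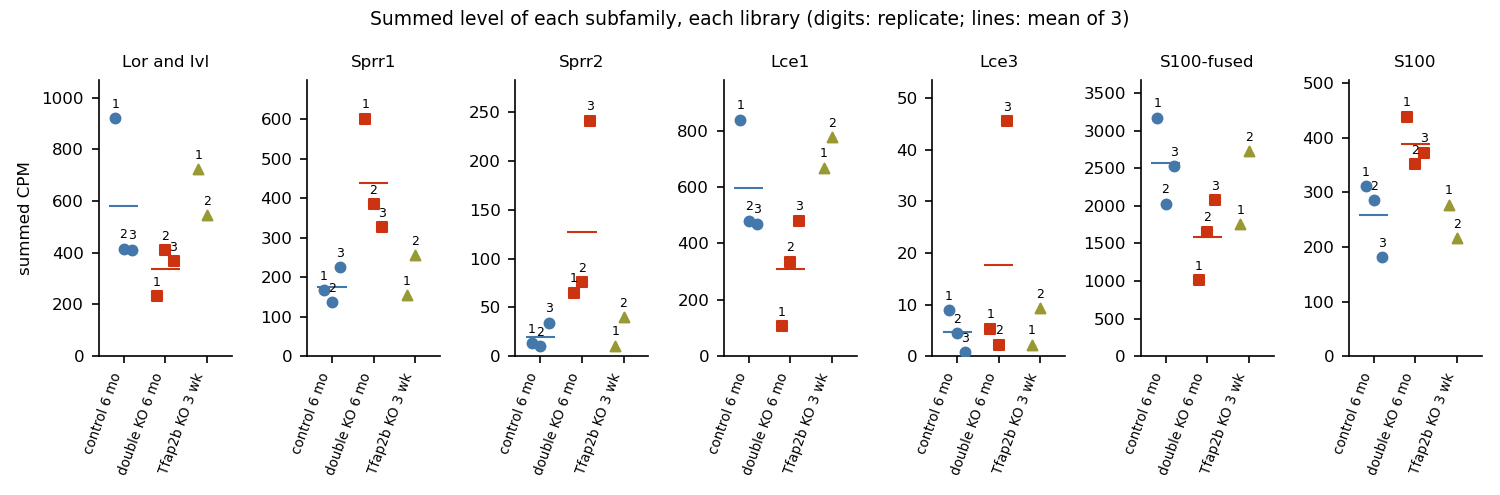
Summed CPM of 7 subfamilies (each panel has its own axis, from 0), 1 point per library with its replicate number, and a line at the mean of 3. Sprr1, Sprr2 and S100 are higher in every library labelled double knockout. The sum of Lor and Ivl is lower only by a near tie (410 CPM in replicate 2 against 411 CPM in control 3). Lce1, Lce3 and the S100-fused type overlap. Replicate 3 stands at 241 CPM in Sprr2 and 45.6 CPM in Lce3.

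Late cornified envelope genes, expressed in the last granular cells, had fitted differences of either sign. Of the 14 Lce1 genes, all were tested, 7 had fitted differences above 0 and 7 below, the median was -0.13, and 1 passed the test. Lce1m (ENSMUSG00000027912, chr3:93017810-93019060) fell from 447, 229.8 and 189 CPM to 20.1, 83.4 and 43.1 CPM, with groups that did not overlap. The fitted difference was -2.64 ± 0.61 (log2, 6.22-fold lower, edgeR adjusted p = 0.0419), and the call was lost without control replicate 1 (-2.16, 0.107) or 2 (-2.78, 0.0773) and without labelled double knockout replicate 3 (-2.51, 0.156). Lce1m lies apart from the rest of its family, 166.5 kb from Lce1l, and only 2.122 kb from Crct1, which encodes a cysteine-rich protein. Crct1 (ENSMUSG00000027913, chr3:93014205-93015687) fell as well, from 336, 184 and 197 CPM to 32.5, 66.5 and 86.7 CPM. Its groups did not overlap and the fitted difference was -2.02 ± 0.39 (edgeR adjusted p = 0.0179), lost without control replicate 1 (-1.68, 0.0532) or labelled double knockout replicate 2 (-2.03, 0.0655).

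Among the other Lce1 genes, replicate 1 of the libraries labelled double knockout set much of the spread. It was the lowest of its group in 14 of 14 Lce1 genes, against 30.1% of all genes tested, and replicate 3 was the highest in 13 of 14, against 31.5%. Lce1a1 (chr3:92646535-92648307), the second most abundant in the controls, measured 101, 63.3 and 62.0 CPM against 21.6, 75.1 and 88.6 CPM. Its groups overlapped, at -0.36 ± 0.50 (edgeR adjusted p = 0.657), and the difference was 0.096 without replicate 1. At the other end of the family, Lce1g (chr3:92750148-92752338) measured 0.997, 1.41 and 1.11 CPM in controls and 1.67, 3.55 and 17.4 CPM in the other group, which did not overlap, at 2.496 ± 0.82 (edgeR adjusted p = 0.0634); it, Sprr2b and Sprr2h were chosen after their values were seen. The summed Lce1 level was 838, 481 and 470 CPM against 107, 335 and 481 CPM, so the groups overlapped. Lce6a (chr3:92620081-92621660) measured 9.01 to 15.5 CPM against 3.04 to 10.1 CPM and did not pass the test.

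Lce3 genes, known to be induced at a damaged barrier, were low in every library but 1. Their sum was 8.89, 4.42 and 0.716 CPM in controls and 5.29, 2.18 and 45.6 CPM in libraries labelled double knockout. In this sum replicate 3 alone stood above the controls, and without it the log2 ratio of means went from 1.92 to -0.32. Of the 6 genes, Lce3c (chr3:92944486-92945733) was the 1 tested, with 95, 43 and 9 counts in controls and 42, 20 and 411 in the other group, at 1.09 ± 1.26 (edgeR adjusted p = 0.586) and -0.88 without replicate 3. Lce3d (chr3:92957390-92958505) had 7, 4 and 2 counts against 12, 5 and 120. Lce3e had 1, 1 and 0 counts against 10, 3 and 111, and Lce3f had 2, 0 and 0 against 6, 4 and 92. In both, which were chosen after their values were seen, the groups did not overlap in CPM, at few counts. Without a filter on low counts, Lce3d, Lce3e and Lce3f were called higher, in a fit whose p-values differed widely from the reported ones also for well-counted genes. Lce3a had 0 counts in the first 5 of these 6 libraries, which allows up to 3 counts each, and 12 in replicate 3. Part of Lce3c, Lce3d, Lce3e and Lce3f is identical over 150 bases (3.2% to 36.8% of stretches), so reads may be split between them.

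**Figure D4:**
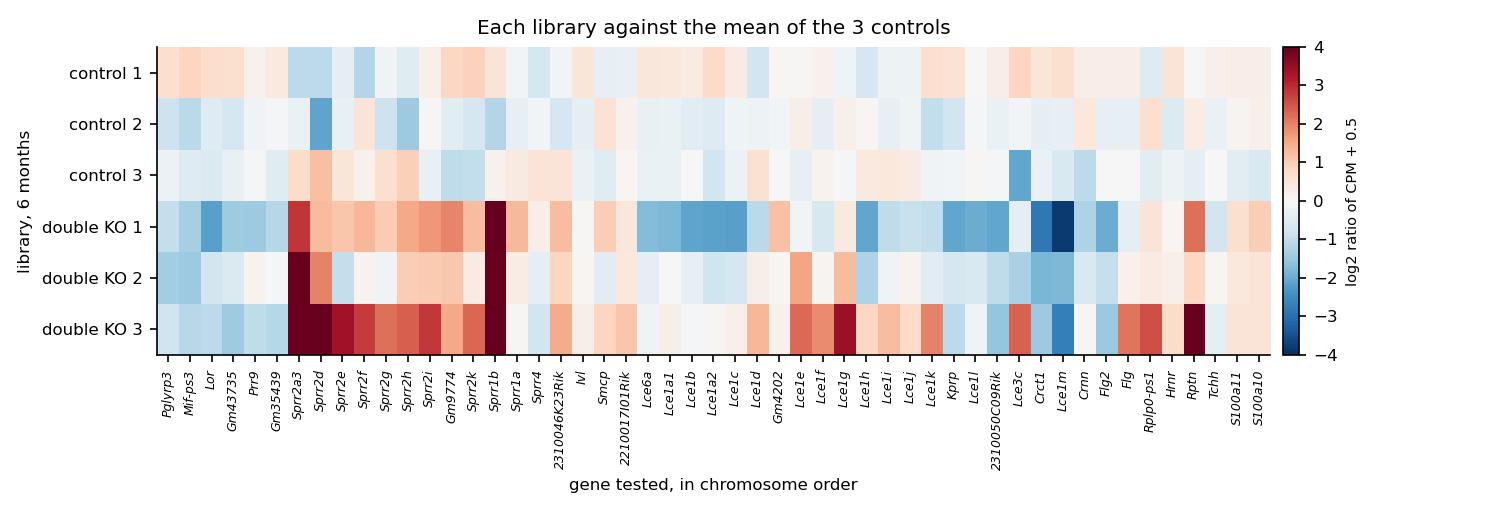
Each of the 51 members tested (horizontal axis, in chromosome order) in each library at 6 months (vertical axis), as the log2 ratio of CPM plus 0.5 to the mean of the 3 controls, red above and blue below. The row of labelled double knockout replicate 1 is blue through most Lce1 genes, that of replicate 3 is red in Sprr2, Lce1f to Lce1k, Lce3c, Flg and Rptn.

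Proteins of the S100-fused type join a calcium-binding S100 domain to long runs of repeats. Flg2, the most abundant member of the complex in the controls by CPM, fell while its neighbours did not pass the test. Flg2 (ENSMUSG00000049133, chr3:93197278-93221391), filaggrin-2, went from 2519.9, 1678 and 2094 CPM in the controls to 535, 1107 and 751 CPM in libraries labelled double knockout. The groups did not overlap, and the fitted difference of -1.47 ± 0.27 (log2, 2.77-fold lower, edgeR adjusted p = 0.00982) stayed past the threshold in each of the 17 alternative fits. Its share of all counts in the complex was 35.4%, 39.8% and 41.7% in controls and 18.04%, 27.7% and 15.98% in the other group. Filaggrin itself did not pass the test. Flg (ENSMUSG00000102439, chr3:93273523-93293686), 52.13 kb further on, measured 160.2, 106 and 129.5 CPM in controls and 99.6, 149 and 586 CPM in libraries labelled double knockout. Replicate 3 was far above all others, the groups overlapped, and the fitted difference of 1.01 ± 0.73 (edgeR adjusted p = 0.395) became -0.13 without it.

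Hornerin, a filaggrin-like protein, overlapped between the groups. Hrnr (chr3:93319749-93333570) measured 460.4, 219 and 276 CPM against 335, 365 and 535 CPM, 0.29 ± 0.29 (edgeR adjusted p = 0.52). Repetin, another envelope precursor, was higher in each library labelled double knockout but unevenly so. Rptn (chr3:93393699-93399442) measured 6.06, 7.51 and 4.43 CPM against 29.1, 11.04 and 190.1 CPM, with groups that did not overlap. Its fitted difference was 3.59 ± 1.25 with an edgeR adjusted p of 0.127, and 1.68 with an adjusted p of 0.0333 when replicate 3 was left out; DESeq2 gave an adjusted p of 0.0080. Trichohyalin and cornulin did not pass the test. Tchh (chr3:93442330-93449077), a protein of the inner root sheath of hairs, measured 22.7, 16.1 and 19.7 CPM against 11.6, 20.5 and 14.9 CPM, -0.39 ± 0.25 (edgeR adjusted p = 0.315). Of 15 marker genes of the inner root sheath and hair shaft, 14 were in the tables, 10 were tested and 1 was lower. That is 10% of those tested, near the 8.59% of all genes called lower. The fitted differences of those tested nevertheless ran from -1.61 to -0.37, with a median of -1.14, against -0.035 over all genes. The 14 genes summed to 39.1 to 41.1 CPM in controls and 17.6 to 24.3 CPM in the other group. Crnn (chr3:93144787-93149819) had 3 to 22 counts in each library at 6 months, -0.72 ± 0.84 (edgeR adjusted p = 0.525), and Tchhl1 (chr3:93468754-93471980), with 25, 6 and 14 counts against 0, 8 and 7, was not tested. The repeats limit these values: of the 150-base stretches in the longest transcript, 46.2% occur more than once in Flg2, 62.4% in Flg and 66.2% in Hrnr. Levels per kb between these genes are therefore uncertain, and a comparison of 1 gene across libraries shares that loss.

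Ratios inside a library do not depend on its total. The ratio of Flg to Flg2 counts was 0.0636, 0.0629 and 0.0618 in the controls, nearly constant, and 0.186, 0.1345 and 0.781 in libraries labelled double knockout. That of Hrnr to Flg2 was 0.183, 0.130 and 0.132 against 0.625, 0.329 and 0.712. Rptn to Flg2 was 0.00241, 0.00447 and 0.00211 against 0.0544, 0.00998 and 0.253, and Ivl to Lor was 0.2395, 0.304 and 0.342 against 1.293, 0.489 and 0.681. In all of these, as for Sprr1b to Sprr1a, the groups did not overlap. Flg2 and Lor, the genes divided by, were themselves lower in every library labelled double knockout, so these ratios in part restate those falls. In replicate 1, Flg itself was below every control (99.6 CPM against 106 to 160.2 CPM) while its ratio to Flg2 was above them. The count of Lce3 per 100 Lce1 counts was 1.06, 0.919 and 0.153 against 4.94, 0.652 and 9.48, and there the groups overlapped. The pairs were chosen after the values were seen and are given with no test. In the 2 libraries labelled Tfap2b knockout at 3 weeks, Flg to Flg2 was 0.158 and 0.121, Hrnr to Flg2 0.190 and 0.197, Rptn to Flg2 0.00131 and 0.00268, Ivl to Lor 0.142 and 0.380, and Sprr1b to Sprr1a 0.0198 and 0.0634.

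**Figure D5:**
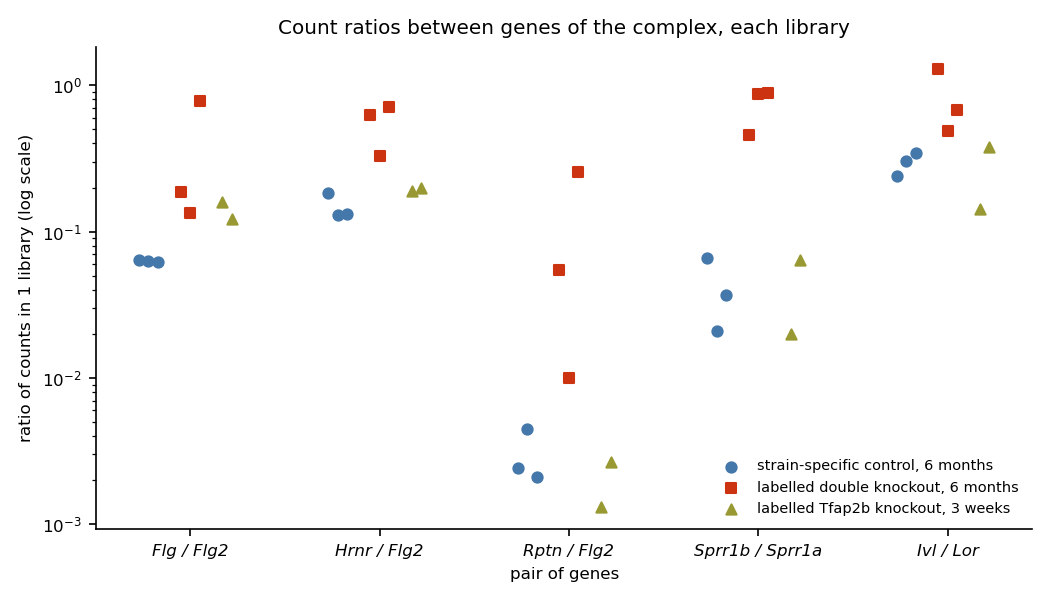
Ratio of the counts of 2 genes within 1 library (log axis) for 5 pairs of the complex, with circles for the controls, squares for the libraries labelled double knockout and triangles for those labelled Tfap2b knockout at 3 weeks. In each pair the 3 squares lie above the 3 circles, and the circles of Flg over Flg2 lie between 0.0618 and 0.0636.

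Of the remaining genes, 2310050C09Rik (ENSMUSG00000090314, chr3:92868359-92870216) fell from 289, 197 and 230.4 CPM to 55.9, 119 and 81.8 CPM. The groups did not overlap, and the fitted difference of -1.55 ± 0.27 (log2, 2.94-fold lower, edgeR adjusted p = 0.0085) stayed past the threshold in each of the 17 alternative fits. Kprp (chr3:92823074-92827247), which encodes a proline-rich keratinocyte protein and lies 41.11 kb away, measured 867, 346 and 538 CPM against 139, 367 and 280.1 CPM. Its groups overlapped, at -1.23 ± 0.44 (edgeR adjusted p = 0.104). The S100 genes at the far end of the interval, partners of annexins, were higher in each library labelled double knockout but did not pass the test. S100a11 (chr3:93520488-93526287) measured 212, 189.9 and 128 CPM against 274, 234 and 254 CPM, 0.45 ± 0.19 (edgeR adjusted p = 0.133). S100a10 (chr3:93555080-93564643) measured 99.3, 95.5 and 54.0 CPM against 165, 118 and 119 CPM, 0.61 ± 0.24 (edgeR adjusted p = 0.116). Both passed when no filter on low counts was used (edgeR adjusted p = 0.0202 and 0.00198), though each had 829 counts or more in every library. That fit moved other well-counted genes widely, in either direction. Sprr1b went from an edgeR adjusted p of 0.000772 to 1.59e-69, and Lor from 0.131 to 0.269. It is therefore weak ground for a call. Of the 150-base stretches of S100a11, 24.9% also lie in pseudogenes.

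Genes that work with the products of the complex, from elsewhere in the genome, showed calls in both directions. Of 30 genes of the cornified envelope and granular layer, 28 were tested, 2 rose, 6 fell and 20 did not pass, with a median of -0.25. The genes that rose made up 7.14% of those tested and the genes that fell 21.4%, against 6.26% and 8.59% of all genes. With earlier results of these data known when the list was chosen, these shares are only descriptive. Krt1, a suprabasal keratin, rose by 1.05 ± 0.19 (log2, edgeR adjusted p = 0.0081) and Blmh, a hydrolase that breaks down filaggrin peptides, by 1.08 ± 0.16 (0.00337). Lower were 2 kallikrein proteases of desquamation, Klk5 at -2.42 ± 0.38 and Klk7 at -1.07 ± 0.17, their inhibitor gene Spink5 at -1.02 ± 0.14, corneodesmosin (Cdsn) at -1.21 ± 0.18, desmocollin 1 (Dsc1) at -0.88 ± 0.24 and the keratin gene Krt80 at -1.52 ± 0.19 (edgeR adjusted p from 0.00149 to 0.0430). Tgm1, whose enzyme crosslinks the envelope, measured -0.31 ± 0.18 and the filaggrin protease gene Casp14 0.86 ± 0.28, and neither passed (edgeR adjusted p = 0.28 and 0.0734).

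Of 23 factors known to act on genes of the complex, all tested, 3 rose, 6 fell and 14 did not pass, with a median of -0.26. The factors that fell made up 26.1% of those tested, against 8.59% of all genes, and 39.1% were called in either direction, against 14.9%. This list was chosen with earlier results of these data known, so these shares are only descriptive. Of the 6 that fell, 4 encode subunits of AP-1: Jun at -1.42 ± 0.17, Junb at -1.03 ± 0.17, Fosl1 at -2.37 ± 0.55 and Fosl2 at -0.75 ± 0.16 (edgeR adjusted p from 0.00147 to 0.0391). Fos, another subunit, measured -0.19 ± 0.14 (0.385). The repressors Ovol1 and Prdm1 fell by 0.98 ± 0.21 and 1.29 ± 0.29 (edgeR adjusted p = 0.0168 and 0.0208). Among those that rose, Maf, which drives keratinocyte differentiation, did so by 1.33 ± 0.16 (edgeR adjusted p = 0.00125) and the remodeler gene Smarca4 by 0.41 ± 0.12 (0.0430). Klf4, a factor of barrier formation, was at -0.52 ± 0.15 (edgeR adjusted p = 0.0505), just outside the threshold. Without labelled double knockout replicate 1, or without replicate 2, 2 of the factors were called lower in place of 6. Over all genes, those called lower fell as well, from 1526 of 17755 to 355 of 21237 and 593 of 21056. Without control replicate 2, or without labelled double knockout replicate 1, 1 factor was called higher in place of 3. All genes called higher went from 1111 of 17755 to 448 of 18108 and 313 of 21237.

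At 3 weeks, values of the complex were at hand only for the 2 libraries labelled Tfap2b knockout, with no control of that age, so no comparison was made. Summed over the complex they held 0.461% and 0.623% of counts. Replicate 1 stood apart in genes of other cells, with 2959 CPM of 8 dermal fibroblast genes against 23.7 CPM in replicate 2. The 7 sebaceous gland genes summed to 8573 CPM against 604 CPM, of which Scd1 alone made up 8197 and 524 CPM. Awat1, Awat2 and Elovl3 had at most 2.00 CPM in either library, so this sum follows Scd1 and does not measure sebaceous cells. Sprr1b was at 3.01 and 15.3 CPM, Flg2 at 1298 and 2061 CPM, Flg at 206 and 249.9 CPM, and Lor at 633 and 395 CPM. Lce1 genes summed to 668 and 776 CPM, Sprr2 genes to 10.5 and 39.6 CPM and Lce3 genes to 2.24 and 9.35 CPM. Crct1 measured 214 and 343 CPM and Lce1m 191 and 229 CPM.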

How the data were processed

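Total RNA from epidermal sheets was depleted of ribosomal RNA and sequenced as paired 150 bp reads, per the labels' protocols. The deposited values are whole-number counts per gene with exon coordinates. The submitters' processing notes name Trimmomatic 0.36, STAR 2.5.2b, featureCounts of Subread 1.5.2 and the builds GRCm38 and GRCh38, with no role; the use of strand and the handling of reads with several matches were not given in the sources used here, so overlapping genes and near-identical copies can share or lose reads. Coordinates are those of the count files, read as GRCm38, and symbols come from GENCODE M21 of that build, in which all 95 members had the same start and end. Samples were grouped by their titles. CPM is counts per 1000000 counts of the library, without further factors.

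The comparison at 6 months, 3 libraries against 3, used edgeR 4.0.16 in R 4.3.3 on all genes: filterByExpr, TMM factors, robust glmQLFit with a prior count of 2, and glmQLFTest, adjusted over 17755 genes at 0.05. The steps were tested on simulated counts. With 3 against 3 libraries an exact permutation test cannot go below 0.10, so sums and ratios were given no test. Named with values in each library were all members past the threshold, Lor, Ivl, Kprp, the S100-fused and S100 genes and the 2 most abundant members of each Sprr and Lce1 or Lce3 family. Alternatives were median-ratio factors, total counts, 2 other filters, DESeq2 1.42.0, limma-voom (limma 3.58.1), the replicate number as a block, all 8 libraries, a test against a fold of 1.5, removal of the 20 most counted genes, subtraction of the receptor-gene level and each library left out. Members and lists were chosen with earlier results of these data known. Same-numbered libraries did not deviate together (Pearson correlations over genes of 0.03, -0.16 and -0.06), so the numbers were not taken as pairs. Promoters come from RefSeq on GRCm38.p6. The limit of 3 counts given for a count of 0 covers counting error only. The values of 1 gene of the factor list are not reported here.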

Additional observations from a re-analysis of the deposited data

How the results depend on the processing

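Sprr1b, Flg2 and 2310050C09Rik kept their direction and their side of the threshold in all 17 alternatives, and Sprr2a3 in the 16 that tested it. Sprr2i lost its call in 7 of 16, 2310046K23Rik and Lce1m in 6 of 17 and Crct1 in 4 of 17, with the direction kept. The members called higher, 4 in the reported fit, were 17 without a filter on low counts (in both directions 23.9% of 92 members tested, against 11.3% of all genes), 2 with at least 10 counts in every library, 10 by DESeq2 (in both directions 31.4% of members against 21.6% of all genes), 2 in the test against a fold change of 1.5, and 2 to 6 with each library left out. Those called lower, also 4, were 2 with the replicate number as a block, 2 in the test against a fold change of 1.5, and 2 to 6 with each library left out. In both directions, the block called 13.7% of members tested against 9.74% of all genes. The test against a fold change of 1.5 called 7.84% against 3.29%. Of the cornified envelope genes called higher, 2 in the reported fit, 5 were called without a filter, 4 by DESeq2, 1 against a fold change of 1.5, and 2 to 3 with each library left out. Factors called higher, 3 in the reported fit, were 1 against a fold change of 1.5 and 1 to 4 with each library left out, and those called lower, 6, were 1 and 2 to 8. With the replicate block, 5 members were called higher, among them Sprr2d (3.54, adjusted p = 0.0039), and 1729 genes in all in place of 2637; the correlation of deviations was highest for control 3 with labelled double knockout 2 (0.17), not for a shared number. Signs changed for results that were not called: Sprr4 to 0.17 without control 3 (lowest over all libraries left out, -0.65), Ivl to -0.019 with the receptor-gene level subtracted and -0.11 without control 2 (highest 0.39), Lce1a1 to 0.096 without labelled double knockout 1 (lowest -0.68), and, without labelled double knockout 3, Lce3c to -0.88 (highest 1.99), Flg to -0.13 (highest 1.46) and the Lce3 sum to -0.32 (over all libraries left out, -0.32 to 2.78). Over all genes, 1111 were higher and 1526 lower (42.1% higher), against 1376 and 1327 (50.9% higher) with total counts and no further factors. Other counts of all genes were 1653 and 2182 by DESeq2, 1941 and 2868 without a filter, 196 and 389 against a fold change of 1.5, 658 and 890 with all 8 libraries in 1 fit, and from 313 and 355 (without labelled double knockout 1) to 2733 and 4811 (without control 3). The causes were not tested. Depth limits genes with few counts, among them 4 of 12 Sprr2 and 5 of 6 Lce3 genes, which were not tested.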

Other observations

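Some small genes of the complex lie inside or across larger ones, and 3 such pairs are given here. Rplp0-ps1 (chr3:93278141-93279073), a processed pseudogene within the span of Flg and on its strand, measured 0.415, 1.59 and 0.456 CPM in controls and 1.38, 1.16 and 7.44 CPM in libraries labelled double knockout, highest in replicate 3 as Flg was. Gm37857 (chr3:93393698-93394896), which overlaps the start of Rptn, had 2.93 CPM in that replicate and at most 0.177 CPM in the other libraries at 6 months. Mif-ps3 (chr3:92024567-92024911), within Pglyrp3, measured 6.15, 1.24 and 2.02 CPM against 0.941, 0.818 and 1.18 CPM. Pglyrp3 (chr3:92014583-92031582), which encodes a peptidoglycan recognition protein, measured 47.8, 16.8 and 25.7 CPM against 15.2, 11.1 and 17.2 CPM, with groups that overlapped and a fitted difference of -1.12 ± 0.36 (edgeR adjusted p = 0.0655). Reads of such nested pairs cannot be told apart in a table of counts per gene where the use of strand is not given. These genes were chosen after their values were seen.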
